A study of Mus musculus with 8 samples.

Results

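The mouse cytokine receptor genes Osmr, Il6st, Lifr, Il11ra1, Il13ra1, Il4ra, Ifngr1, Ifngr2, Ifnar1 and Ifnar2 were followed across 4 groups of stromal cells. They were chosen by name because Osmr and Il13ra1 were over 10-fold higher in co-cultured OP9 cells, so that the question was whether the chains that share a receptor with them were higher as well. Of these 10 genes, 9 had a probe set named in the annotation of the array, and all 9 passed the filter on low values (2 or more of the 8 arrays with an intensity of 100 or higher) that kept 10084 of 18194 named genes. Il11ra1 had no named probe set.

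RNA was measured on Affymetrix GeneChip arrays of the mouse genome, with 2 arrays that the labels call biological replicates in each group. The groups were OP9 stroma cells co-cultured for a week with 230-238 pre-B cells, OP9 cells without 230-238 cells, the osteoblast-like line MC3T3 and the embryonic fibroblast line NIH3T3. OP9 is a bone marrow stroma line of strain B6C3F1, and the labels give Balb/c as the strain of both other lines. The co-cultured OP9 cells and their controls carried the red fluorescent protein mStrawberry from a retrovirus, by which the co-cultured cells were sorted away from the pre-B cells, and the controls were kept in conditioned medium from a co-culture. No further treatment is given for MC3T3 and NIH3T3 cells, and the description of the second MC3T3 array names sorted cells where that of the first names a culture. Each group stands for 1 cell line, so that line, strain, culture medium and virus cannot be told apart between lines.

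The median intensity of an array was 41.8 to 44.99, and 34.3% to 36.3% of its probe sets reached 100. The median absolute log2 difference between the arrays of a group was 0.07 in co-culture, 0.07 in OP9 cells, 0.09 in MC3T3 cells and 0.14 in NIH3T3 cells. Of 6 stromal and fibroblast markers, 5 averaged at least 100 in co-culture, in OP9 and in NIH3T3 cells, and all 6 did in MC3T3 cells, whereas the 3 named osteoblast markers Sp7, Alpl and Ibsp averaged below 100 in MC3T3 cells. Pre-B cell markers other than Ebf1, which OP9 cells express, summed to 391 and 387 in co-culture, against 254 and 271 in OP9 cells, with none of the 8 averaging 100 in either group and the recombinase gene Rag1 at 11.96 in co-culture and 10.8 in OP9 cells. Over the same 8 markers MC3T3 cells summed to 309 and 281, and NIH3T3 cells to 488 and 521, of which Blnk averaged 182. Vpreb1, the surrogate light chain gene, averaged 76.9 in co-culture and 23.7 in OP9 cells. The 9 leukocyte and macrophage markers summed to 723 and 758 in co-culture, against 508 and 530 in OP9 cells, and among them Coro1a averaged 121 in co-culture and 24.9 in OP9 cells, and Ptprc, which encodes CD45, 32.8 in co-culture and 8.75 in OP9 cells. Those 9 markers summed to 486 and 484 in MC3T3 cells and to 1053 and 1047 in NIH3T3 cells, where Cd68 averaged 532. The part of pre-B cells and other leukocytes in the differences between co-cultured and control OP9 cells given here was not tested. In bulk RNA a different number of cells of a type and a different amount of RNA per cell cannot be told apart.

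These receptors have no enzyme of their own. A ligand brings 2 or more chains together, JAK kinases bound to the chains phosphorylate each other and the receptor, and STAT factors dock, are phosphorylated and enter the nucleus, where they also switch on the SOCS genes that dampen the signal. Il6st encodes gp130, the chain shared by the IL-6 family, which pairs with the OSM receptor chain Osmr for oncostatin M, with the LIF receptor chain Lifr for LIF, and with the product of Il11ra1 for IL-11. In the mouse, oncostatin M signals mainly through Osmr with gp130. Il13ra1 and Il4ra form the type II receptor for IL-4 and IL-13 that non-hematopoietic cells use, Ifngr1 and Ifngr2 form the receptor for interferon gamma, and Ifnar1 and Ifnar2 form that for type I interferons. In bone marrow, gp130 cytokines are known to act on stroma and on bone-forming cells.

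All 10 genes were found among RefSeq promoters, with 12 promoters between them. In the 250 bases before the start, read on both strands, 9 of the 12 promoters held the GC box GGGCGG, against 32.7% of all 32851 promoters of this length. They belonged to 9 of the 10 genes, all but Ifnar2. The GC content of the 12 ran from 50.8% to 82.4%, against a median of 52.4% over all promoters, and its part in this count was not tested. The STAT site TTCNNNGAA was in the Ifnar2 promoter alone (7.02% of all promoters). The wider STAT6 site TTCNNNNGAA (5.85% of all) and the kappa B consensus (7.25% of all) were in the Ifngr2 promoter alone. The interferon response element GAAANNGAAA, the AP-1 site TGANTCA and the C/EBP site TTGCNNAA were in none of the 12, against 2.98%, 6.75% and 9.56% of all promoters. The 4 promoters below are those of the 2 genes that differed most in co-culture, which held GC boxes only, and those of the 2 genes with one of the other motifs. They come from RefSeq on GRCm38.p6, run 5′ to 3′ and stop at the base before the start, and capitals mark the motif matches, which are descriptions of letters and not of bound sites.
Osmr (chr15:6874314-6874563, minus strand): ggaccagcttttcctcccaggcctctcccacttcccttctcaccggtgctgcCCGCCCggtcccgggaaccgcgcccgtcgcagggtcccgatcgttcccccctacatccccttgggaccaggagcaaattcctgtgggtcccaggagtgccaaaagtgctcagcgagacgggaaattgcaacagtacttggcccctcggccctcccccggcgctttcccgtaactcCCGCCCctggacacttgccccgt
Il13ra1 (chrX:36111858-36112107, plus strand): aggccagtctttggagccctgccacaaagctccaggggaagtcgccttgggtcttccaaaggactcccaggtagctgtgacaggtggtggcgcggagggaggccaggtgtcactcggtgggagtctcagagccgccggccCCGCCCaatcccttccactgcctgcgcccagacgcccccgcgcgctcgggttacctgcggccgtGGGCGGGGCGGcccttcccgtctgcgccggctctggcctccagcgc
Ifnar2 (chr16:91372533-91372782, plus strand): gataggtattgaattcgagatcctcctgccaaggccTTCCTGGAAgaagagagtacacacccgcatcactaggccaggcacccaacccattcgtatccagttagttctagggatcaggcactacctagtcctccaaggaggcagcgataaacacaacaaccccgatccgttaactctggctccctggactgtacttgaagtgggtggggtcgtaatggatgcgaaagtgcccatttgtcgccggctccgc
Ifngr2 (chr16:91546809-91547058, plus strand): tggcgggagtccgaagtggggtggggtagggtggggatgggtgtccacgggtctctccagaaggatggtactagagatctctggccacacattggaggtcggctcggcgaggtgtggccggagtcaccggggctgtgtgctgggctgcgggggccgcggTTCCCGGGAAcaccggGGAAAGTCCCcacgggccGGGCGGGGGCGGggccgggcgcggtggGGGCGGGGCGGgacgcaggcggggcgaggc
In the Ifnar2 sequence the capitals are the STAT site. In the Ifngr2 sequence the first capitals are the STAT6 site, the next the kappa B match, and the others GC boxes, as are all capitals in the Osmr and Il13ra1 sequences.

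The comparison of co-cultured with control OP9 cells chose the genes, so its values for the 9 receptor genes are a description with no test. Values are the deposited normalized intensities, which rank arrays for a probe set but do not rank genes against each other, and differences are on the log2 scale. The means were at least 2-fold higher in co-culture for 5 of the 9 genes (Osmr, Il13ra1, Lifr, Il6st and Il4ra), under 2-fold higher for Ifnar2, Ifngr1 and Ifngr2, and lower for Ifnar1. Counted the same way, by means alone, 5.67% of all genes reached 2-fold, 2.71% higher and 2.97% lower, and 0.109% (11 genes) were over 10-fold higher. The median log2 difference was 1.18 over the 9 genes and -0.05 over all genes.

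Among the gp130 family, Osmr had the widest difference. It read 4422 and 4340 in co-culture, against 334 and 284 in OP9 cells, 157 and 167 in MC3T3 cells and 1337 and 1635 in NIH3T3 cells. Co-culture was thus 14.2-fold (3.83 log2) above OP9 cells, place 6 of 10084 in the order of rises, and above both NIH3T3 arrays as well, by 2.96-fold. Its second probe set was 11.9-fold higher in co-culture, with 1073 and 1142 against 91.9 and 93.4 in OP9 cells, and the third, below 100 on every array, was 1.998-fold higher.

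Lifr read 1205 and 1330 in co-culture, against 262 and 266 in OP9 cells, 59.8 and 60.2 in MC3T3 cells and 65.3 and 97.6 in NIH3T3 cells. The co-culture arrays were 4.79-fold (2.26 log2) above OP9 cells and in place 42 of all genes. This was the receptor gene next below 10-fold, where Il13ra1 was next above it. Lifr passed the filter only through the 4 arrays of OP9 cells with and without 230-238 cells, and its other 2 probe sets stayed below 100 on every array.

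Il6st, the shared chain, differed less. It read 2852 and 2772 in co-culture, against 1187 and 1243 in OP9 cells, 754 and 760 in MC3T3 cells and 2012 and 2261 in NIH3T3 cells. The difference between co-culture and OP9 cells was 2.31-fold (1.21 log2, place 209), and the 4 probe sets of the gene spanned only 1.16 to 1.37 log2. Against NIH3T3 cells the 4 probe sets did not agree: that with the highest mean was 0.40 higher in co-culture on the log2 scale, 2 others 0.93 and 0.88 higher, and 1 lower, at -0.51.

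**Figure D1:**
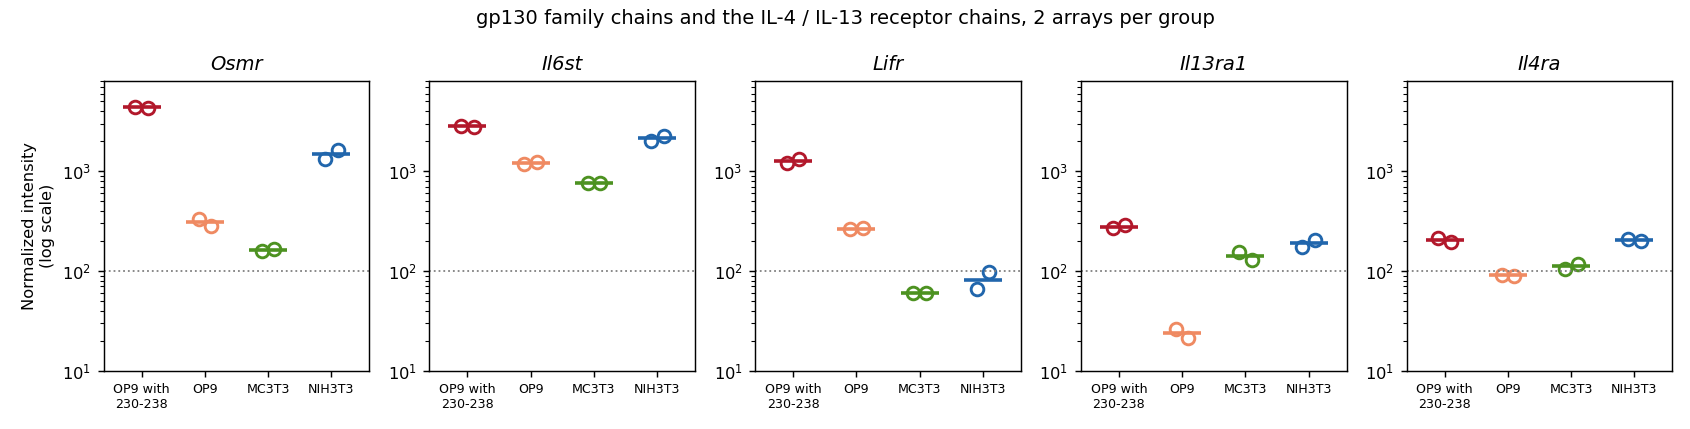
Normalized intensity (log axis) of 3 gp130 family chains and both IL-4 and IL-13 receptor chains on each of the 8 arrays; circles are arrays, bars are means of 2, and the dotted line is the filter value of 100. Co-cultured OP9 cells lie above OP9 cells in all 5 panels, from 4422 and 4340 against 334 and 284 for Osmr to 215 and 195 against 91.8 and 89.0 for Il4ra.

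Il13ra1, which binds IL-13, read 266 and 288 in co-culture, against 26.2 and 21.4 in OP9 cells, 154 and 130 in MC3T3 cells and 173 and 204 in NIH3T3 cells. OP9 cells were the group that stood apart, under the array-wide median of 42.6, while co-culture was 1.96-fold above MC3T3 and 1.47-fold above NIH3T3 cells. The difference between co-culture and OP9 cells was 11.7-fold (3.55 log2, place 8), and 3 other probe sets gave 16.7-fold, 10.6-fold and 10.1-fold. The fifth, below 100 on every array, gave 1.81-fold. In the same order, the 3 other probe sets put co-culture 2.70-fold, 1.89-fold and 1.62-fold above MC3T3 cells. Above NIH3T3 cells they gave 1.95-fold, 1.59-fold and 1.76-fold.

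Its partner Il4ra, the chain that binds IL-4 and is shared with the type I receptor, followed at a smaller size. It read 215 and 195 in co-culture, against 91.8 and 89.0 in OP9 cells, 105 and 119 in MC3T3 cells and 209 and 200 in NIH3T3 cells. That was 2.27-fold higher in co-culture than in OP9 cells (1.18 log2, place 215), and 2.23-fold with the second probe set, while the third, below 100 throughout, gave 1.15-fold. The co-culture and NIH3T3 arrays overlapped. OP9 cells had both chains of this receptor at their lowest of the 4 groups.

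A level near the bottom of the scale makes a fold depend on how background is handled. With 16 added to each value before the log the difference of Il13ra1 between co-culture and OP9 cells was 2.88 log2 (7.38-fold). With the log2 values of all probe sets of a gene averaged it was 3.04 (8.24-fold) for Il13ra1, 2.80 (6.97-fold) for Osmr, 1.41 (2.65-fold) for Lifr and 0.85 (1.80-fold) for Il4ra.

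The interferon receptor chains differed by less than 2-fold. Ifngr1, the chain that binds interferon gamma, read 1405 and 1433 in co-culture, against 738 and 783 in OP9 cells, 465 and 515 in MC3T3 cells and 220 and 264 in NIH3T3 cells, which placed co-culture 1.87-fold (0.90 log2) above OP9 cells. Ifngr2, the signalling partner, read 810 and 785 in co-culture, against 540 and 520 in OP9 cells, 376 and 378 in MC3T3 cells and 296 and 329 in NIH3T3 cells, and was 1.51-fold (0.59 log2) higher in co-culture than in OP9 cells. By their means both chains ran in the same order over the groups, co-culture, OP9, MC3T3 and NIH3T3 cells. How many of all genes share this order was not counted. The second probe set of Ifngr2 had the same order of means but arrays that overlapped between groups. It read 319 and 191 in co-culture and 186 and 217 in OP9 cells. In MC3T3 cells it read 199 and 183, and in NIH3T3 cells 148 and 173. Co-culture was 1.23-fold above OP9 cells with this probe set.

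For the type I receptor the 2 chains did not run together. Ifnar2, the chain that binds the ligand most tightly, read 1180 on both co-culture arrays, against 642 and 583 in OP9 cells, 391 and 385 in MC3T3 cells and 773 and 927 in NIH3T3 cells. Co-culture was 1.93-fold (0.95 log2) above OP9 cells with this probe set, and 1.24-fold and 1.38-fold with the 2 others. Ifnar1 read 357 and 384 in co-culture, against 408 and 410 in OP9 cells, 291 and 340 in MC3T3 cells and 262 and 356 in NIH3T3 cells. It was the only one of the 9 genes whose co-culture arrays lay below those of OP9 cells, by 1.10-fold (-0.14 log2), a gap little wider than the 1.08-fold between the co-culture arrays themselves. Its arrays in MC3T3 and NIH3T3 cells overlapped.

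**Figure D2:**
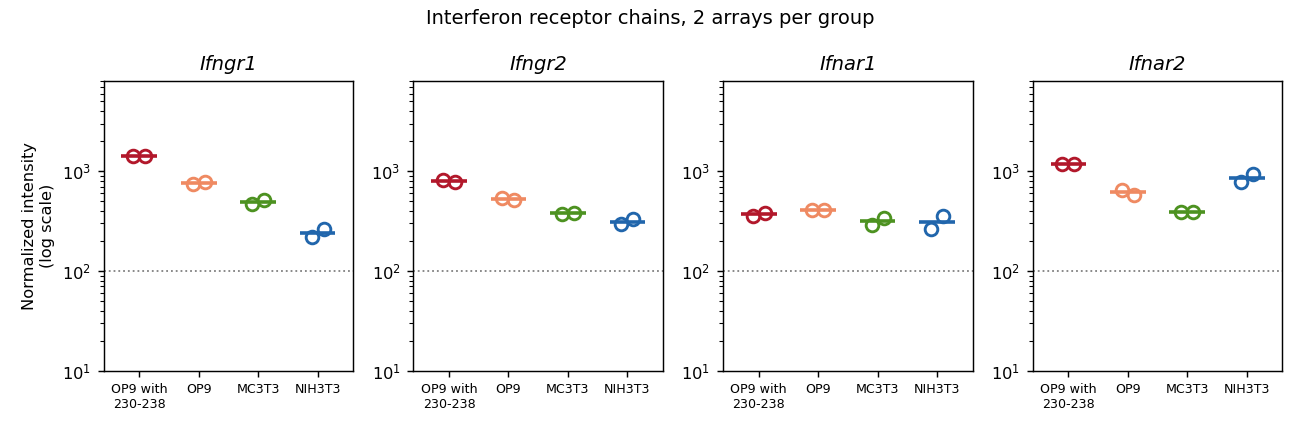
Normalized intensity (log axis) of the 4 interferon receptor chains on each of the 8 arrays; circles are arrays, bars are means of 2, and the dotted line is the filter value of 100. Ifngr1, Ifngr2 and Ifnar2 lie higher in co-culture than in OP9 cells, and Ifnar1 has 357 and 384 in co-culture against 408 and 410 in OP9 cells.

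**Figure D3:**
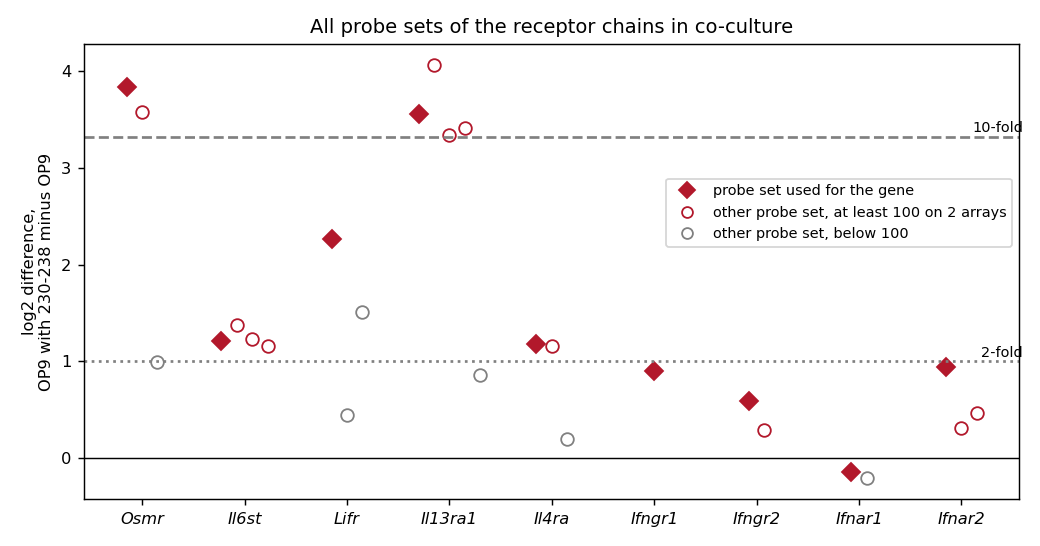
Log2 difference between co-cultured and control OP9 cells for each of the 26 probe sets of the 9 receptor genes; diamonds are the probe sets used for the genes, open red circles others with at least 100 on 2 arrays, grey circles others below that, and the dashed and dotted lines mark 10-fold and 2-fold. All probe sets of Osmr, Il6st, Lifr, Il13ra1, Il4ra, Ifngr1, Ifngr2 and Ifnar2 lie above 0, and both of Ifnar1 lie below it.

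The co-cultured cells were also set against the other lines, with the same 2 arrays and hence again as a description. Against NIH3T3 cells, 4 of the 9 genes were at least 2-fold higher in co-culture (Osmr, Lifr, Ifngr1 and Ifngr2) and 0 lower, where the means of 30.3% of all genes differed that much, 19.3% higher and 11.0% lower. Against MC3T3 cells, 6 were higher (those 4 with Il6st and Ifnar2) and 0 lower, where the means of 22.9% of all genes did, 11.6% higher and 11.3% lower. The widest gaps were those of Osmr, 27.1-fold above MC3T3 cells, and of Lifr, 21.1-fold above MC3T3 and 15.8-fold above NIH3T3 cells, in both of which Lifr stayed below 100. With all probe sets of a gene averaged these gaps were 9.91-fold for Osmr, and 5.001-fold and 4.49-fold for Lifr. Ifngr2 then fell under 2-fold against NIH3T3 (0.99 log2) and MC3T3 cells (0.73 log2), which left 3 genes against NIH3T3 and 5 against MC3T3 cells.

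The lines without 230-238 cells were compared with limma over all 10084 genes, where a gene was called at a Benjamini-Hochberg adjusted p below 0.05 and at least 2-fold. Osmr and Il13ra1 were chosen on the OP9 arrays, so their values there are a description, as are those of Lifr, which passed the filter only through arrays of OP9 cells, with or without 230-238 cells. The other 6 genes were tested. In OP9 against NIH3T3 cells, 2 of the 6 were called, Ifngr1 higher and Il4ra lower, where 30.8% of all genes were called, 20.5% higher and 10.3% lower. OP9 cells were 3.15-fold above NIH3T3 cells for Ifngr1 (1.66 log2, SE 0.10, adjusted p = 2.67e-06) and 2.26-fold below for Il4ra (-1.18, SE 0.09, adjusted p = 7.62e-06). Without the fold limit all 6 passed the adjusted p, where 7855 of 10084 genes did. Il6st (-0.81), Ifnar2 (-0.47), Ifngr2 (0.76) and Ifnar1 (0.42) had adjusted p-values of at most 0.0286 but less than 2-fold. Single probe sets differed from this: 1 of Il6st was lower in OP9 cells past 2-fold (-1.88, adjusted p = 1.56e-06), and 1 of Ifnar2 was higher (1.20, adjusted p = 2.05e-04), opposite to the probe set used. OP9 cells were 4.79-fold below NIH3T3 cells for Osmr and 7.95-fold below them for Il13ra1, and 3.31-fold above them for Lifr. The median of all genes lay at 0.16 log2 in this comparison, and with quantile normalization, which set it to 0.01, both calls held. The call of Il4ra ended (-0.78 log2) with all its probe sets averaged, the dim one included. The second probe set of Il4ra, which also passed the filter, was at -0.88 and not called.

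Against MC3T3 cells, limma called 0 of the 6 in OP9 cells, where 19.9% of all genes were called, 10.5% higher and 9.41% lower. Il6st (0.68), Ifnar2 (0.66), Ifngr1 (0.63), Ifngr2 (0.49), Ifnar1 (0.38) and Il4ra (-0.30) differed by less than 2-fold, all 6 with adjusted p-values of at most 0.0492. Osmr was 1.91-fold higher in OP9 than in MC3T3 cells, and Il13ra1 5.97-fold lower. Lifr was 4.403-fold higher in OP9 cells, over MC3T3 values of 59.8 and 60.2 near the bottom of the scale. With all probe sets of Lifr averaged, dim ones included, the difference was 0.91 log2 over MC3T3 and 0.76 over NIH3T3 cells.

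The rise by which the genes were chosen was between co-culture and OP9 arrays, so all 9 were tested between MC3T3 and NIH3T3 cells. The genes were still chosen with earlier results of these data known, so the p-values here are no independent evidence. Of all genes, 27.4% were called, 17.8% higher and 9.65% lower. Osmr was 9.14-fold lower in MC3T3 than in NIH3T3 cells (-3.19 log2, SE 0.12, adjusted p = 2.21e-07) and Il6st 2.82-fold lower (-1.50, SE 0.08, adjusted p = 1.28e-06). Both chains of the oncostatin M receptor were thus lower in the osteoblast-like line with the probe sets used. The other Il6st probe sets were lower too, at -2.73, which was called, and at -0.88 and -0.65, which were not. Ifnar2 was lower too (-1.13, SE 0.10, adjusted p = 2.21e-05) and Ifngr1 higher (1.02, SE 0.10, adjusted p = 4.64e-05). The other 5 were not called: Il4ra (-0.87, adjusted p = 4.71e-05), Il13ra1 (-0.41, adjusted p = 0.0245) and Ifngr2 (0.27, adjusted p = 0.0111) were under 2-fold, Lifr had an adjusted p of 0.0528 and a 95% interval of -0.80 to -0.03, and Ifnar1 one of 0.808 with an interval of -0.30 to 0.38. The call of Ifngr1 ended with quantile normalization (0.86), with 16 added (0.97) and without MC3T3 replicate 2 (0.95) or NIH3T3 replicate 1 (0.89). That of Ifnar2 ended without NIH3T3 replicate 2 (-0.99) and with its probe sets averaged (-0.36), 1 of which was higher in MC3T3 than in NIH3T3 cells.

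**Figure D4:**
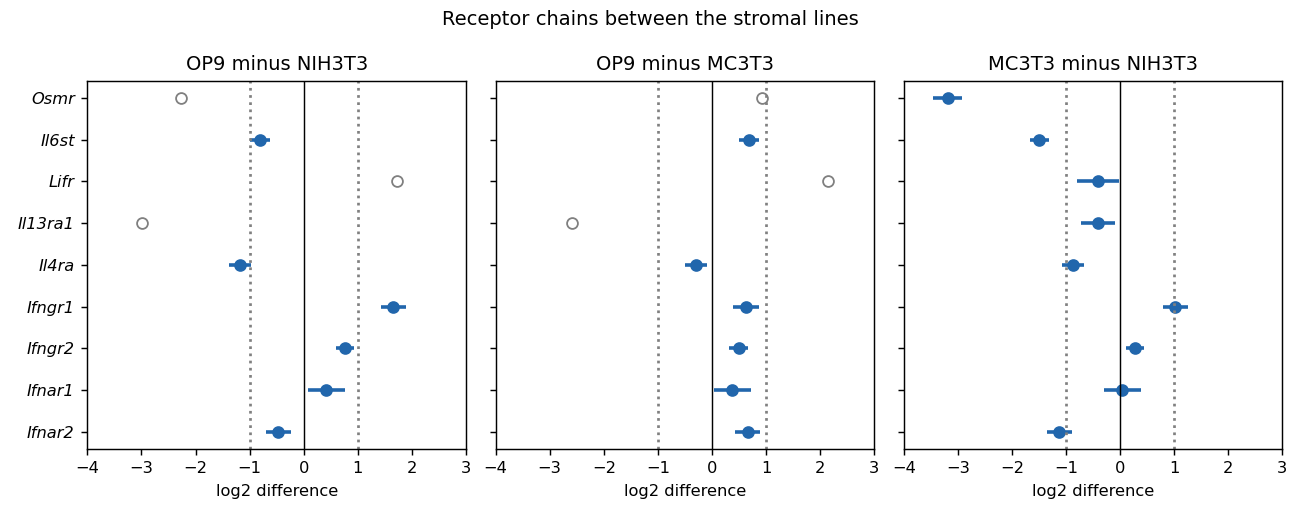
Log2 differences of the 9 receptor genes in OP9 minus NIH3T3, OP9 minus MC3T3 and MC3T3 minus NIH3T3 cells; filled points carry 95% confidence intervals of the limma fit, open grey points (Osmr, Lifr and Il13ra1 in the OP9 comparisons) are values given without a test, and dotted lines mark 2-fold. Lifr lies at 1.73 and 2.14 in the OP9 comparisons, and Osmr at -3.19 and Il6st at -1.50 in MC3T3 minus NIH3T3.

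Genes around these receptors were counted in co-cultured against control OP9 cells with the same fit and call, in which 5.67% of all genes were called. Of 35 other class I and class II cytokine receptor chains, 8 passed the filter. Of these, 7 did so on arrays outside co-culture and 0 of the 7 were called by limma, with 4 at an unadjusted p below 0.05 and less than 2-fold. The eighth passed through the co-culture arrays alone, so that it had to differ. This was Csf2rb, the shared chain of the IL-3, IL-5 and GM-CSF receptors, which read 163 and 169 in co-culture, against 22.3 and 17.5 in OP9 cells, which lie under the array-wide median. Csf2rb is mainly a gene of blood cells, like the markers given above, and their part in this value was not tested. The IL-6 binding chain Il6ra, which pairs with gp130, averaged 86.1 in co-culture and 89.6 in OP9 cells (-0.05 log2, adjusted p = 0.696). The ligand-binding chain Il3ra was at 244 in co-culture and 178 in OP9 cells (0.46 log2, not called), and the growth hormone receptor Ghr at 3240 in co-culture and 4054 in OP9 cells (-0.32, not called). Il13ra2, the decoy receptor for IL-13, averaged 21.7 in co-culture and 18.3 in OP9 cells and did not pass the filter.

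Of the 14 ligands of these receptors, 12 were named on the array and 2 passed the filter. These were the gp130 ligands Ctf1 (273 in co-culture, 353 in OP9 cells) and Clcf1 (160 in co-culture, 161 in OP9 cells), and neither was called. The oncostatin M gene Osm averaged 65.5 in co-culture and 59.6 in OP9 cells, Il6 48.3 in co-culture and 25.5 in OP9 cells, Il13 27.2 in co-culture and 26.0 in OP9 cells, and Ifng 11.9 in co-culture and 11.3 in OP9 cells. RNA of the 230-238 cells was not analysed here.

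Jak2, a kinase that binds many of these chains, was the only 1 of 4 JAK kinases called. It read 793 and 761 in co-culture, against 332 and 327 in OP9 cells (2.36-fold, adjusted p = 1.17e-05), while Jak1, the main kinase of gp130, was at -0.44 log2 and not called. Of 16 STAT factors and feedback inhibitors tested, 3 rose and 0 fell. Stat3, the main STAT of gp130, averaged 2297 in co-culture and 1145 in OP9 cells (2.01-fold, adjusted p = 2.48e-04), just past the 2-fold limit. Socs3, the inhibitor of gp130 signalling, read 2517 and 2925 in co-culture, against 772 and 812 in OP9 cells (3.43-fold, adjusted p = 2.59e-05), and Usp18, the inhibitor that binds Ifnar2, rose 3.67-fold (adjusted p = 2.89e-06). Stat6, the STAT of IL-4 and IL-13, was at -0.07 log2 and not called.

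Of 12 known targets of gp130 cytokines tested, 6 rose (Bcl3, Pim1, Socs3, Timp1, Cebpd and Myc) and 1, Lcn2, fell. All 12 passed the filter on arrays outside co-culture, but Lcn2 did so on arrays of OP9 cells alone. Bcl3, which encodes a nuclear partner of NF-kB, averaged 687 in co-culture and 82.8 in OP9 cells (8.31-fold, adjusted p = 1.69e-06), and Timp1, an inhibitor of metalloproteinases, 2772 in co-culture and 971 in OP9 cells (2.85-fold, adjusted p = 5.27e-06). Lcn2, an iron-binding acute phase gene, fell to 57.7 in co-culture, against 198 in OP9 cells. OP9 cells were the only group in which it reached 100, so that it had to be lower in co-culture. Of the 13 known targets of IL-4 and IL-13, 2 passed the filter: Postn, which encodes the matrix protein periostin, fell to 61.2 in co-culture, against 427 in OP9 cells (-2.79 log2, adjusted p = 1.03e-05), and Cish was at -0.41 and not called.

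Of 9 known targets of interferons tested, 6 passed the filter on arrays outside co-culture, and all 6 rose. The largest difference among them was that of the immunoproteasome gene Psmb9, with 1476 and 1402 in co-culture, against 300.4 and 308 in OP9 cells (4.73-fold, adjusted p = 2.17e-05). The smallest was that of the peptide transporter Tap1 (2.65-fold). The other 3 (Psmb8, Ifit1 and Gbp3) reached 100 in co-culture alone and so had to differ. Psmb8, another immunoproteasome gene, read 776 and 805 in co-culture, against 88.6 and 87.2 in OP9 cells, and Ifit1 629 and 714 in co-culture, against 81.5 and 92.8 in OP9 cells. The 6 named genes of this list that were not tested did not pass the filter. The lists of genes around the receptors were drawn up with earlier results of these arrays known. Their counts, calls and p-values are thus a description of the same contrast and no separate evidence. Socs3 was counted both among the feedback inhibitors and among the gp130 targets.

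**Figure D5:**
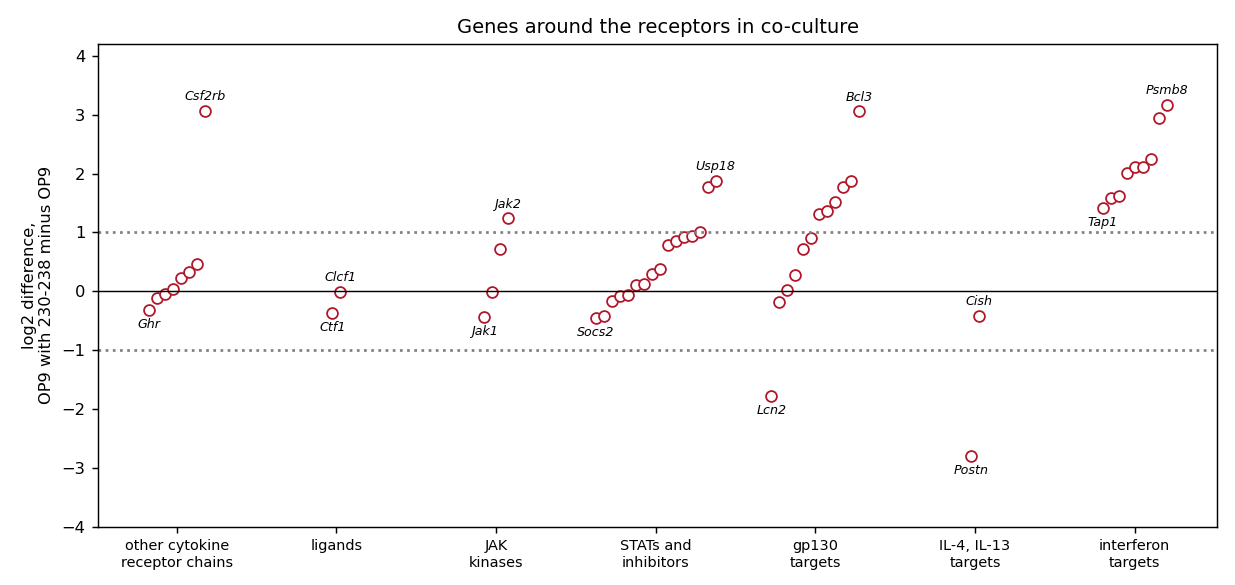
Log2 difference between co-cultured and control OP9 cells for the tested genes of 7 lists around the receptors; each circle is a gene, the genes at the ends of a list are named, and the dotted lines mark 2-fold. The 6 interferon targets that passed the filter outside co-culture lie above 2-fold, as does Jak2 alone in its list. Psmb8, Ifit1, Gbp3 and Csf2rb passed through the co-culture arrays alone and so had to differ. Of all genes, 5.67% were called in this comparison.

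Over the 8 arrays Osmr and Il13ra1 did not follow one pattern (Pearson r = 0.61 of log2 values), since Osmr was low in OP9 and MC3T3 cells and Il13ra1 in OP9 cells alone. The genes most like Osmr were Tnfaip2 (r = 0.997), Tmem45a (0.993), Socs3 (0.992), Ifi35 (0.991) and Nr1d2 (0.987). Tnfaip2, a TNF-induced gene, averaged 1477 in co-culture, against 382 in OP9, 245 in MC3T3 and 851 in NIH3T3 cells, the same order of groups as Osmr. Those most like Il13ra1 were Slco3a1 (r = 0.993), Fau (0.990), Pip4k2a (0.982), Slc25a28 (0.982) and H2-M3 (0.978). Slco3a1, which encodes an organic anion transporter, averaged 325 in co-culture, against 91.6 in OP9, 231 in MC3T3 and 239 in NIH3T3 cells. The likeness is in shape and not in size: Fau, a ribosomal protein gene, had 11704 in co-culture and 10174 in OP9 cells. The 8 arrays form 4 pairs, so these correlations rest on 4 group means and carry no test.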

How the data were processed

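RNA of 4 groups of mouse stroma cells was measured on 2 arrays per group. Each array has 45101 probe sets, for which the authors deposited intensity on a linear scale after normalization. RMA Express, dChip and affylmGUI appear in the methods. The version, the arrays normalized together and the program that wrote the values are not given in the sources used here. A probe-level background that is not removed compresses folds near the bottom of the scale.

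Probe sets were named through the annotation of the array. There was 1 symbol for 34958 of them, none for 9211 and several for 932. A current gene was found for 34754. Those with several symbols stayed unnamed. Each gene was represented by the probe set of highest mean log2 value (9012 of 18194 genes had several). The 10084 genes that reached 100 on 2 or more arrays were tested.

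Group means were fitted to log2 values, with no pseudocount, by lmFit and eBayes of limma 3.58.1 in R 4.3.3 over all 8 arrays in 1 fit with 4 residual degrees of freedom, checked on simulated data. Adjustment of p-values followed Benjamini and Hochberg over all genes, and calls needed a change of 2-fold or more beside an adjusted p under 0.05. The number of arrays limits the precision. The labels say of the replicates only that they are biological, so the p-values speak of the spread among these arrays.

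The 10 receptor genes and all gene lists were chosen with earlier results of these data known. The text names the receptor genes, up to 4 called genes of each list with the largest difference and genes needed to account for a count, and the 5 genes most correlated with Osmr and with Il13ra1. Other list members, namely Osm, Il6, Il13, Ifng, Il3ra, Il6ra, Ghr, Il13ra2, Jak1, Stat6, Gbp3 and Tap1, were named for their role or place after their values were seen. Promoters came from RefSeq (GRCm38.p6). The alternatives were other scalings, filters, a pseudocount, other treatments of probe sets, the fit and the fold limit, and leaving out each array.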

Additional observations from a re-analysis of the deposited data

How the results depend on the processing

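The 2-fold limit decided most counts of calls. By the adjusted p alone, 8 of the 9 receptor genes passed in co-culture against OP9 cells, 7 against NIH3T3 and 8 against MC3T3 cells. Over all 10084 genes these counts were 4314, 7764 and 7054. In OP9 against NIH3T3, OP9 against MC3T3 and MC3T3 against NIH3T3 cells 9, 9 and 7 passed, where 7855, 6713 and 7542 of 10084 genes did. The co-culture comparisons give a count and no test of the genes chosen on them. So do the OP9 comparisons for Osmr, Il13ra1 and Lifr. With each probe set tested on its own, 919 of 17030 probe sets were called in co-culture against OP9, 5231 against NIH3T3 and 3887 against MC3T3 cells. In OP9 against NIH3T3, OP9 against MC3T3 and MC3T3 against NIH3T3 cells 5451, 3417 and 4927 of them were called. These are counts of probe sets and not of genes, and are larger since more features were tested. With probe sets averaged, 3 receptor genes passed in OP9 against NIH3T3 and 1 in OP9 against MC3T3 cells, where 2435 and 1578 of 8570 genes did. With the settings used in the results above, 5 and 2 of the 9 passed, where 3106 and 2011 of 10084 genes did. Osmr, Il13ra1 and Lifr were among those 5, and Lifr and Il13ra1 were those 2, all given without a test. With its probe sets averaged Ifnar2 turned to 0.21 in OP9 minus NIH3T3 cells. Ifnar1 in MC3T3 minus NIH3T3 cells (0.04) turned to -0.10 with quantile normalization, -0.07 without MC3T3 replicate 2 and -0.18 without NIH3T3 replicate 1, and was 0.26 without NIH3T3 replicate 2. The causes were not tested. Il4ra passed 2-fold in MC3T3 minus NIH3T3 cells (-1.02) with quantile normalization.

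When single arrays were left out, 1 array remained in that group, so that only differences are given here. In co-culture minus OP9 cells Ifnar2 ran from 0.88 to 1.02 log2, across the 2-fold limit. In co-culture minus MC3T3 cells Il13ra1 did so, from 0.85 to 1.09. Osmr crossed the limit in OP9 minus MC3T3 cells, and Ifngr1 and Ifnar2 in MC3T3 minus NIH3T3 cells. No other receptor gene crossed it in any comparison. Same-numbered arrays deviated together with correlations from -0.004 to 0.18, so that the numbers were not taken as pairs, and with the replicate number as a block the counts were unchanged at 572, 3060, 2306, 3106, 2011 and 2767 genes. The number of arrays, and signal near background for Il13ra1 in OP9 cells and Lifr in MC3T3 cells, limit the precision.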
